A study of Mus musculus with 8 samples.

Results

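Late islands are short stretches of late-replicating DNA that lie inside early-replicating chromatin. They were picked from the mean of 4 timing profiles of mouse embryonic stem cells. In autosomal bins of 50 kb that hold at least 3 scored windows, a run of successive bins with a mean score under -0.5 was taken as an island. The run was not carried over gaps of more than 200 kb, had to span 600 kb or less, and needed a bin with a mean above 0.5 within 500 kb on both sides. The rule found 139 islands with 888 bins, which is 2.16% of the 41018 autosomal bins and 44.9 Mb, out of 1181 late runs. That islands are late and their flanks early is therefore set by the rule and is no finding.

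The cells were E14Tg2a embryonic stem cells, a male line of the 129/Ola background, with an auxin-inducible degron on CTCF in both groups. One group received 500 µM indole-3-acetic acid (auxin), which triggers destruction of the tagged protein, for 2 days, and the control group received none. Cells were pulsed with the thymidine analogue BrdU for 2 hours and sorted into early and late S phase, and their labelled DNA was sequenced. The 8 libraries give 4 profiles, control replicates 1 and 2 and auxin replicates 1 and 2, each built from an early and a late library. The sources used here do not say whether the line is a single clone or whether replicates were grown apart, so each p-value reflects only how far these profiles differ among themselves, which may be technical variation. Protein levels of CTCF and cells without the degron given auxin were not analysed here, so the effects of auxin itself and of CTCF loss cannot be told apart.

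DNA replication follows a fixed order in which gene-rich, transcribed chromatin is copied early in S phase and compact, gene-poor chromatin late. The order is laid out in large domains, and a short late stretch between early domains is copied by forks that enter from its neighbours or start late within it. CTCF binds DNA through zinc fingers at insulator sites and, with cohesin, sets the borders of chromatin loops and contact domains. A higher timing score means earlier replication. No source used here gives its log base or scale, so all levels and differences are in score units, with an SD of 2.10 over all windows. Read depth behind the profiles is unknown, since no file used here holds counts.

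Island genes have promoters of 2 kinds, and 5 are printed to show both. Promoters rich in CpG dinucleotides mark mainly developmental and widely used genes, while promoters poor in CpG are typical of genes used in 1 tissue. Printed are up to 250 bases before the annotated gene from RefSeq (GRCm38.p6, the coordinates of mm10), 5′ to 3′ on the gene's strand, with each CpG in capitals. The genes were chosen after their values were seen. Hhip encodes a membrane protein that binds and restrains Hedgehog ligands (minus strand, chr8:80058061-80058258, 24 CpGs in the 198 bases shown). Sox14 encodes a transcription factor of interneurons (minus strand, chr9:99876171-99876420, 23 CpGs). Krt23 encodes an epithelial keratin (minus strand, chr11:99493121-99493370, 5 CpGs). Cyp3a11 encodes a liver enzyme that oxidises drugs and steroids (minus strand, chr5:145879855-145880104, 2 CpGs). Slc22a28 belongs to an organic anion transporter family (minus strand, chr19:8131983-8132232, 1 CpG).
Hhip: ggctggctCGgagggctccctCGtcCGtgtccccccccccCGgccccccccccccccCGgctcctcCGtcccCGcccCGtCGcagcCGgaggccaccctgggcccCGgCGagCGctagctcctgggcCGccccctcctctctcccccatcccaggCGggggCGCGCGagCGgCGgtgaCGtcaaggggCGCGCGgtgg
Sox14: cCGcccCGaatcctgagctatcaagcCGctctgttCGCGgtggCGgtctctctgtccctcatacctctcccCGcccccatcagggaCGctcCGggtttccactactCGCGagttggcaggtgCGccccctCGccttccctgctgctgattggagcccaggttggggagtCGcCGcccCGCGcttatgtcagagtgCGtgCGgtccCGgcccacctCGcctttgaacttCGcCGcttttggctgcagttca
Krt23: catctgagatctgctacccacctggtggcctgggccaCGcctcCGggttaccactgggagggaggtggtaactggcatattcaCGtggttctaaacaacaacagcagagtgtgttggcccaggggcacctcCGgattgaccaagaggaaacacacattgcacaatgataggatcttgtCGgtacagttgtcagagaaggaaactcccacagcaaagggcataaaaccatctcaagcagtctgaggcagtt
Cyp3a11: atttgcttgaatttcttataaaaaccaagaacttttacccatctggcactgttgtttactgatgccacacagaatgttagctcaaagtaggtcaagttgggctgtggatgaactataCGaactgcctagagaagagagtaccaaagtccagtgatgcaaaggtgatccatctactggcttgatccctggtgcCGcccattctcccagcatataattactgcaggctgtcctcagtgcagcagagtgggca
Slc22a28: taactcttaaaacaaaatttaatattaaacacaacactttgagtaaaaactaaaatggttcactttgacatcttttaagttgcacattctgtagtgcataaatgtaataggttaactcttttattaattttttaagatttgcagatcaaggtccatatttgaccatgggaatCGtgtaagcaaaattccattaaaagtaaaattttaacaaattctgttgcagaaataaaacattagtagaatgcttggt

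Among the promoters listed for islands, CpG-poor ones like the last 3 were the more common kind. Of the 379 protein-coding genes that overlap an island, 239 have a RefSeq promoter (250 bases before to 50 after the start, the most upstream listed start of each gene) that starts in an island bin. None is from the island of alpha and beta protocadherin genes on chromosome 18 (36 genes), and many come from tandem arrays of related genes. The 239 promoters held a median of 2 CpGs and 43.7% GC, against 17 CpGs and 58.0% in the 1101 promoters of the early flanks and 4 CpGs and 47.3% in the 2673 promoters of late runs over 600 kb. The ratio of observed to expected CpG was over 0.6 in 33 island promoters (13.8%), in 58.6% of flank promoters, in 28.6% of those of long late runs and in 52.0% of all 15591. By island, 23 had a listed promoter over 0.6 and 41 had only poorer ones. The letters CCCTC, a core piece of the CTCF motif, occurred on either strand in 53.6% of island promoters, in 55.9% of those of long late runs, in 71.1% of flank promoters and in 70.2% of all. Island promoters thus had nearly the same share as those of long late runs. The motif figures come from promoters that differ in GC content between these sets, and a match of so few letters is a description of the sequence only.

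Islands were spread over all 19 autosomes, from 2 on chromosome 18 to 13 on chromosome 1. They took up 3.94% of the bins of chromosome 16, the highest share, and 1.03% of those of chromosome 18, the lowest. Their span ran from 50 to 600 kb with a median of 300 kb. Of the 139, 11 were a single bin and 14 had the full 600 kb. Most island bins had many scored windows: 85.4% held 8 or 9, against 62.4% of all autosomal bins. This does not measure read depth. Some islands had fewer, such as the lowest-scoring one, on chromosome 13, with 59 windows in 9 bins.

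The rule itself left a wide spread of scores among islands, from an island mean of -2.03 to -0.50, with a median of -0.96. Longer islands were deeper: the Pearson correlation of span with mean score was -0.84 and the Spearman correlation -0.87 (n = 139 islands, which share the same 4 profiles). This is a description of the members, since span and score both entered the rule. The 46 islands of 50 to 200 kb had a median score of -0.63, the 52 of 250 to 400 kb -1.02 and the 41 of 450 to 600 kb -1.49.

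Gene density in the islands lay between that of their surroundings and that of long late domains. Counted by gene midpoint, islands held 7.64 protein-coding genes per Mb, their early flanks 15.6, late runs over 600 kb 3.92 and all autosomal bins 9.51. No protein-coding gene overlapped 32 islands, 1 gene overlapped 52, and 9 islands held 10 genes or more. Islands without a protein-coding gene are called gene-less below. Genes of other kinds were not counted, so such islands may hold them. Genes cover 40.3% of the islands, 53.2% of the flanks and 33.4% of the long late runs.

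The fullest island, with 41 genes, lies on chromosome 11 (99450001 to 100000000) and holds Krt23, Krt39 and a row of keratin-associated protein genes, which build the hair shaft. Next were the alpha and beta protocadherin genes, cell adhesion genes of neurons, on chromosome 18 (37000001 to 37500000, 36 genes), and a group of type 1 vomeronasal receptor genes on chromosome 13 (22200001 to 22800000, 18 genes). All 3 are tandem arrays of genes used in specialised tissues, and members of such arrays can share reads.

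By symbol, several families of tissue-restricted genes were seen in islands. Vomeronasal receptors, the pheromone receptors of the nose, had 45 of 232 measured members in 6 islands (19.4%, against 1.93% of all 19667 genes). Keratins and keratin-associated proteins had 28 of 109 in 2 islands, and conjugating enzymes and esterases, which process drugs and hormones, 14 of 62 in 2 islands. Cytochromes P450 had 13 of 98 in 3 islands, and adhesion and synapse genes 34 of 121 in 2, which are the protocadherins and Cntnap3. Because family members are neighbours, these counts rest on few places.

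Olfactory receptors, which are mostly late (714 of 959 lie in late bins), had 26 members in 3 islands (2.71%, near the 1.93% of all genes), with Olfr165 and Olfr1353 overlapping the most. Interferon and guanylate-binding protein genes had 3 of 64 (4.69%), among them Gbp8 and Gbp9, in 1 island. Genes with a Zfp symbol had 2 of 376 (Zfp831 and Zfp951), and the listed families of developmental transcription factors 1 of 183 (Sox14). These counts go by symbol and miss regulators outside the listed families, such as Prox1 and Zfhx3 below. Housekeeping genes of ribosome, proteasome, respiratory chain, polymerases and translation initiation factors had 0 of 274 in islands. Taste and trace amine receptors, defensins, serpins, C-type lectins, paired immune receptors, secreted protease inhibitors, kallikreins, epidermal barrier genes and lipocalins had 0 as well. These families had only 22 to 55 measured genes each. At the 1.93% of all genes, a count of 0 in such small families is no result about them.

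The 6 deepest islands held such genes too. The lowest, on chromosome 13 (12700001 to 13300000), covers Prl2c3 and Prl2c5, placental hormones of the prolactin family, and scored -1.94 and -2.10 in the controls and -1.97 and -2.11 with auxin. The Cyp3a island on chromosome 5 (145550001 to 146150000), which holds Cyp3a59, Cyp3a25, Cyp3a44 and Cyp3a41a, scored -1.92, -2.10, -2.05 and -2.03 in the same order. Adam6a and Adam6b, sperm surface genes on chromosome 12 (113400001 to 113950000), gave -1.98, -2.10, -1.86 and -2.14. In these 3 islands the control and auxin profiles overlapped.

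The other 3 of the deepest 6 kept the groups apart. Fmo9, a flavin monooxygenase gene, shares an island with Pogk and Fam78b on chromosome 1 (166400001 to 167000000), which scored -1.87 and -2.01 in control and -1.59 and -1.79 with auxin. The nuclear body genes Sp140, Sp100 and Sp110 on chromosome 1 (85200001 to 85700000) went from -1.77 and -1.96 to -1.65 and -1.70. The transporter genes Slc22a27 to Slc22a30 on chromosome 19 (7850001 to 8400000) had the lowest control scores of the 3, -2.16 and -2.19, and stood at -1.37 and -1.40 with auxin.

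The comparison of auxin with control asks whether the timing of the islands differs after auxin treatment of the CTCF degron line. Island bins scored higher, that is earlier, in both auxin profiles than in both controls. Their median score was -1.16 and -1.37 in the control profiles and -0.946 and -0.950 with auxin. The group means of these medians were -1.27 ± 0.150 and -0.948 ± 0.00307 (SD, n = 2 profiles each), a difference of 0.318. In an exact two-sided permutation test over the profiles p was 0.333, the smallest that 2 against 2 allow, so no single value of this design can reach 0.05.

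Island by island, the auxin mean was the higher in 121 of 139 and the lower in 18, with a median difference of 0.347 and a range from -0.584 to 1.14. Both auxin profiles lay above both controls in 101 islands (72.7%), both lay below in 7 (5.04%), and the groups overlapped in 31. Over all 1181 late runs the same counts were 31.2% and 25.0%. Over bins, the auxin profiles lay above in 536 of 888 (60.4%) and below in 64 (7.21%), against 26.4% and 26.1% of all 42710 bins tested. In island bins the absolute difference between the group means averaged 0.409, while replicates of the control differed by 0.250 on average and those of auxin by 0.228. Over all autosomal bins the group means also differed by more than the replicates, by 0.328 against 0.295 and 0.261. In early islands within late chromatin, described below, the group means differed by 0.389.

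**Figure D1:**
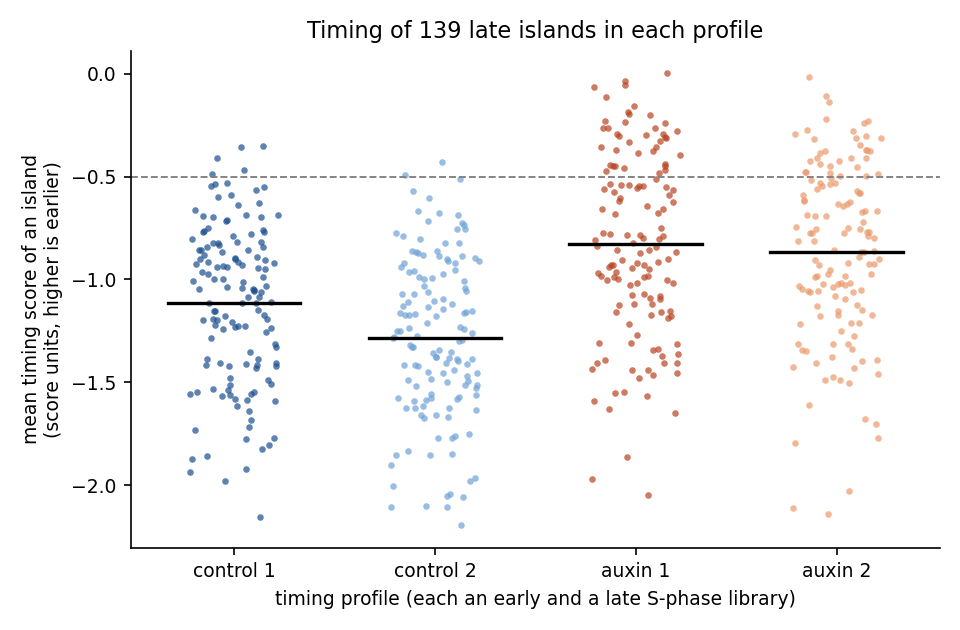
Mean timing score of each of the 139 late islands (points) in each of the 4 profiles, with the mean over islands as a black bar and the limit of the rule, -0.5, dashed. The bars lie at -1.12 and -1.28 in the control profiles and at -0.827 and -0.867 with auxin, and points above the dashed line are more frequent with auxin.

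The rule sets the islands below their surroundings in the mean of the profiles, but not how far in each. With auxin the mean score was above -0.5 in 36 islands, in control cells in 1, and it was above 0 in none of the islands in either group. The depth of an island, the mean of its early flanks minus its own mean, averaged 2.75 and 2.95 in control and 2.39 and 2.45 with auxin. The group means were 2.85 ± 0.140 and 2.42 ± 0.0396 (SD, n = 2), a difference of -0.435 with an exact permutation p of 0.333, again the smallest possible. Depth was lower with auxin in 130 islands and higher in 9.

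The islands differed more between the groups than their flanks. The absolute difference of the group means averaged 0.409 in island bins and 0.332 in flank bins. With sign, flanks were higher with auxin around some islands and lower around others, with a median difference of -0.0575. In 69 islands the island was higher with auxin while its flanks were lower. In 52 both were higher, in 16 both were lower, and in 2 the island was lower while its flanks were higher. In the mean profile, the centre of the islands went from -1.36 and -1.55 in control to -1.05 and -1.10 with auxin. At 300 kb to the left, where the sign of the difference changes, the 4 profiles were between 0.493 and 0.534. The difference was 0.109 at 250 kb to the left and -0.101 at 500 kb to the left. On the right it was 0.0503 at 300 kb and -0.0235 at 500 kb.

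**Figure D2:**
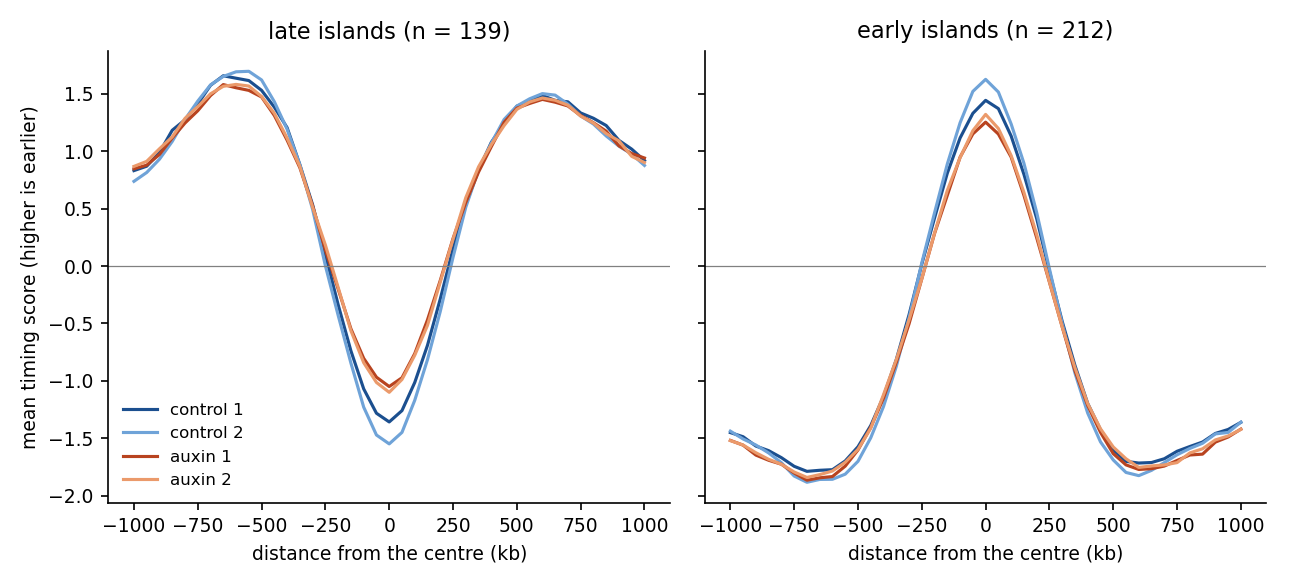
Mean timing score against the distance in kb from the centre of 139 late islands (left) and of 212 early islands in late chromatin (right), 1 line per profile. The auxin lines are shallower than both control lines at the centre of late islands, lower than them at the centre of early islands, and close to the control lines on the flanks.

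The difference was seen at the edges and inside. In the 118 islands of 3 bins or more, the 236 edge bins had a median difference of 0.292 and the 621 inner bins 0.356, and the inner bins had the larger difference in 81 of the 118. Grouped by span, the median difference was 0.403 in islands of 50 to 200 kb, 0.351 in those of 250 to 400 kb and 0.296 in those of 450 to 600 kb. The relation with span was weak across islands (Pearson r -0.14, Spearman correlation -0.13, n = 139). The differences of replicate 1 and of replicate 2 (auxin minus control of the same number) had a Pearson r of 0.75 and a Spearman correlation of 0.72 over the 139 islands, which share the choice of members.

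By gene content, the 32 islands without a protein-coding gene had a median difference of 0.393, the 82 with 1 to 3 genes 0.343 and the 25 with 4 or more 0.246. Islands with a promoter over 0.6 in CpG ratio (23) differed by 0.339, those with only poorer promoters (41) by 0.363 and those with no listed promoter (75) by 0.323. Auxin was above control in 21, 35 and 65 of these. Differences between these classes were not tested.

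**Figure D3:**
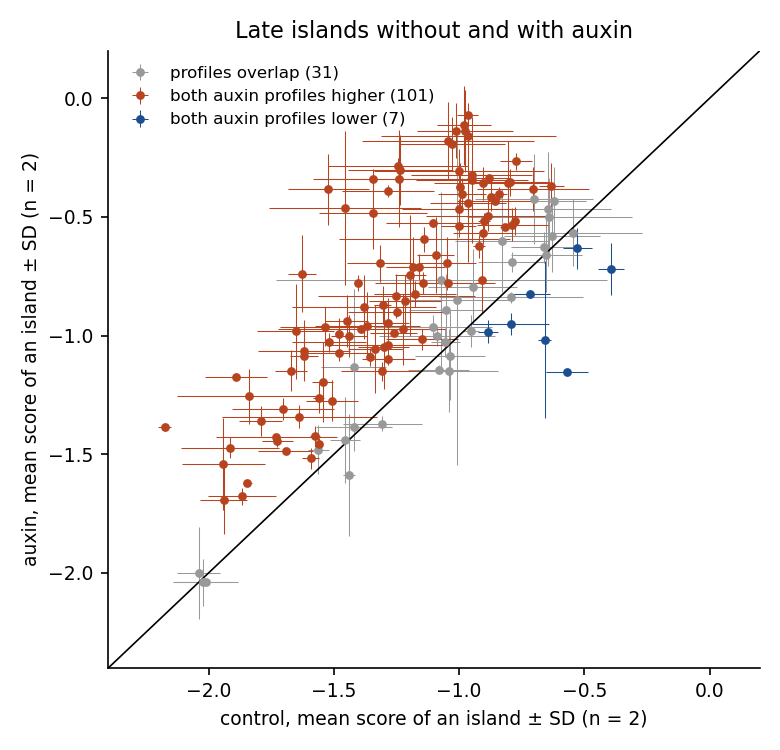
Mean score of each island with auxin against its mean in control (± SD, n = 2 profiles each), with the line of equality. Of the 139 islands, 101 have both auxin profiles above both controls, 7 have both below and 31 overlap, and the deepest 3 islands lie on the line.

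Single bins rarely passed a test. In limma, with Benjamini-Hochberg adjustment over all 42710 bins and a threshold of 0.05, 19 island bins in 12 islands were called earlier (2.14%, against 0.637% of all bins) and 0 later (against 1.02%). At an unadjusted p under 0.05, 280 island bins were earlier and 19 later, which is 31.5% and 2.14%, while the shares over all autosomal bins were 10.4% and 11.1%. With a trended, robust variance limma called 179 island bins earlier and 9 later, which is 20.2% and 1.01%, against 5.17% and 5.66% of all bins. With all bins in the test, limma called 0 earlier. With a replicate left out, 1 group holds a single profile, so only effect sizes are given. The median difference of island bins then ran from 0.245 without control replicate 2 to 0.405 without control replicate 1. In a fit of each bin minus the bins 300 to 500 kb away on both sides, 0 of 887 island bins were called up and 0 down, with a background of 0% in either direction over 38621 bins. In that limma fit 271 island bins were up and 11 down at an unadjusted p under 0.05, against 3396 and 3490 of 37437 autosomal bins, and the trended, robust fit also called 0 in each direction. The same contrast called 77 island bins up with a replicate block (8.68%, against 1.80% of all bins). It called 1 up with at least 5 windows a bin (0.115% against 0.0635%), so these calls depend on the fit.

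The largest difference was in an island without a protein-coding gene on chromosome 4 (142550001 to 142900000). It scored -1.41 and -1.64 in control and -0.280 and -0.489 with auxin, a difference of 1.14, and 3 of its bins were called. In its middle bin (142700001 to 142750000) the controls read -1.69 and -2.58 and the auxin profiles -0.383 and -0.774, a difference of 1.55 ± 0.296 (SE, limma adjusted p = 0.0426). The controls differed more from each other there than the auxin profiles did, and the groups did not overlap.

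Kalrn, the gene of a guanine nucleotide exchange factor of neurons on chromosome 16 (34300001 to 34550000), came second with a difference of 1.00. Its island scored -1.17 and -1.51 in control and -0.311 and -0.371 with auxin, and 2 bins were called. Cntnap3, a neuronal adhesion gene on chromosome 13 (64650001 to 64950000), lies with Spata31 in an island that scored -1.24 and -1.67 in control and -0.234 and -0.692, a difference of 0.993. None of its bins passed, the smallest limma adjusted p being 0.0558. A gene-less island on chromosome 8 (86150001 to 86400000) went from -1.05 and -1.44 to -0.263 and -0.310, and its bin at 86200001 to 86250000 rose by 1.61 ± 0.211 (SE), with the smallest limma adjusted p of any island bin, 0.0271.

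Wdpcp, which acts in ciliogenesis and planar cell polarity, lies on chromosome 11 in an island (21600001 to 21800000) that went from -1.09 and -1.38 to -0.199 and -0.409. Here the flanks differed at least as much, by 1.02 against 0.930 in the island, so that depth went from 2.09 to 2.18. Grin2a, which encodes an NMDA receptor subunit, covers an island on chromosome 16 (9650001 to 9850000) that went from -1.04 and -1.45 to -0.193 and -0.484, and its flanks differed by 0.698. In these 2 islands the neighbourhood was higher with auxin as well, while the flanks of the Kalrn island differed by 0.241.

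Among the other islands with called bins, the one at Gatb on chromosome 3 (85100001 to 85650000) had 3, of which 1 overlaps the gene. Gatb encodes a subunit of a mitochondrial enzyme that charges transfer RNA. The island went from -1.15 and -1.41 to -0.372 and -0.409, and in the bin 85400001 to 85450000 the scores were -1.43 and -1.53 in control and -0.0453 and -0.362 with auxin (difference 1.28 ± 0.218 SE, limma adjusted p = 0.0402). The island at Hhip had 2 called bins (chromosome 8, 80050001 to 80500000) and went from -1.59 and -1.67 to -0.855 and -0.623. The called bin over the printed Hhip promoter (80050001 to 80100000) went from -1.50 and -1.31 to -0.215 and -0.323, a difference of 1.13 ± 0.210 (SE, limma adjusted p = 0.0421). In each of these islands the lowest auxin profile lay above the highest control.

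The Sox14 island (chromosome 9, 99800001 to 100250000) was the only one with a gene of the listed developmental transcription factor families. It went from -1.80 and -1.98 to -1.18 and -1.17, with 1 called bin outside the gene (100100001 to 100150000, limma adjusted p = 0.0491) and a depth of 4.09 in control and 3.39 with auxin. The Slc22a island with its CpG-poor promoters also had 1 called bin, 8100001 to 8150000, which went from -2.44 and -2.86 to -1.52 and -1.63 (limma adjusted p = 0.0485). That bin overlaps Slc22a28, whose promoter is printed above.

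Further called bins lay in the island at Tmem26 and Cabcoco1 on chromosome 10 (68500001 to 69100000, 2 bins), where the mean went from -1.64 and -2.04 to -1.17 and -1.34. Those 2 bins, 68550001 to 68650000, lie between the genes. A single bin was called over the orphan receptor gene Gpr26 on chromosome 7 (131950001 to 132000000), in an island (131850001 to 132150000) that also holds Cpxm2, a carboxypeptidase-like gene, where no bin was called. Another lay outside any protein-coding gene on chromosome 16 (23750001 to 23800000), in an island (23450001 to 23850000) that holds the interferon-induced gene Rtp4 and Masp1, a protease gene of the complement lectin pathway. The bins over Masp1 itself differed by -0.0915, with a smallest limma adjusted p of 0.514. The other 2 were gene-less islands on chromosome 4 (54100001 to 54700000) and chromosome 19 (9350001 to 9650000). In the latter the called bin (9550001 to 9600000) held only 4 windows. Over these 4 islands with 1 called bin each, the differences of the island means were 0.860, 0.490, 0.671 and 0.627 in that order.

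Some long islands with a single regulatory gene kept the groups apart without a called bin. Prox1, a homeobox gene of lymphatic vessels and liver, lies alone in a 600-kb island on chromosome 1 (190100001 to 190700000) that went from -1.62 and -1.77 to -1.48 and -1.49. Zfhx3, a zinc finger homeobox gene, lies in one on chromosome 8 (107900001 to 108500000) that went from -1.78 and -2.05 to -1.44 and -1.50. Their smallest limma adjusted p-values were 0.219 and 0.0921.

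**Figure D4:**
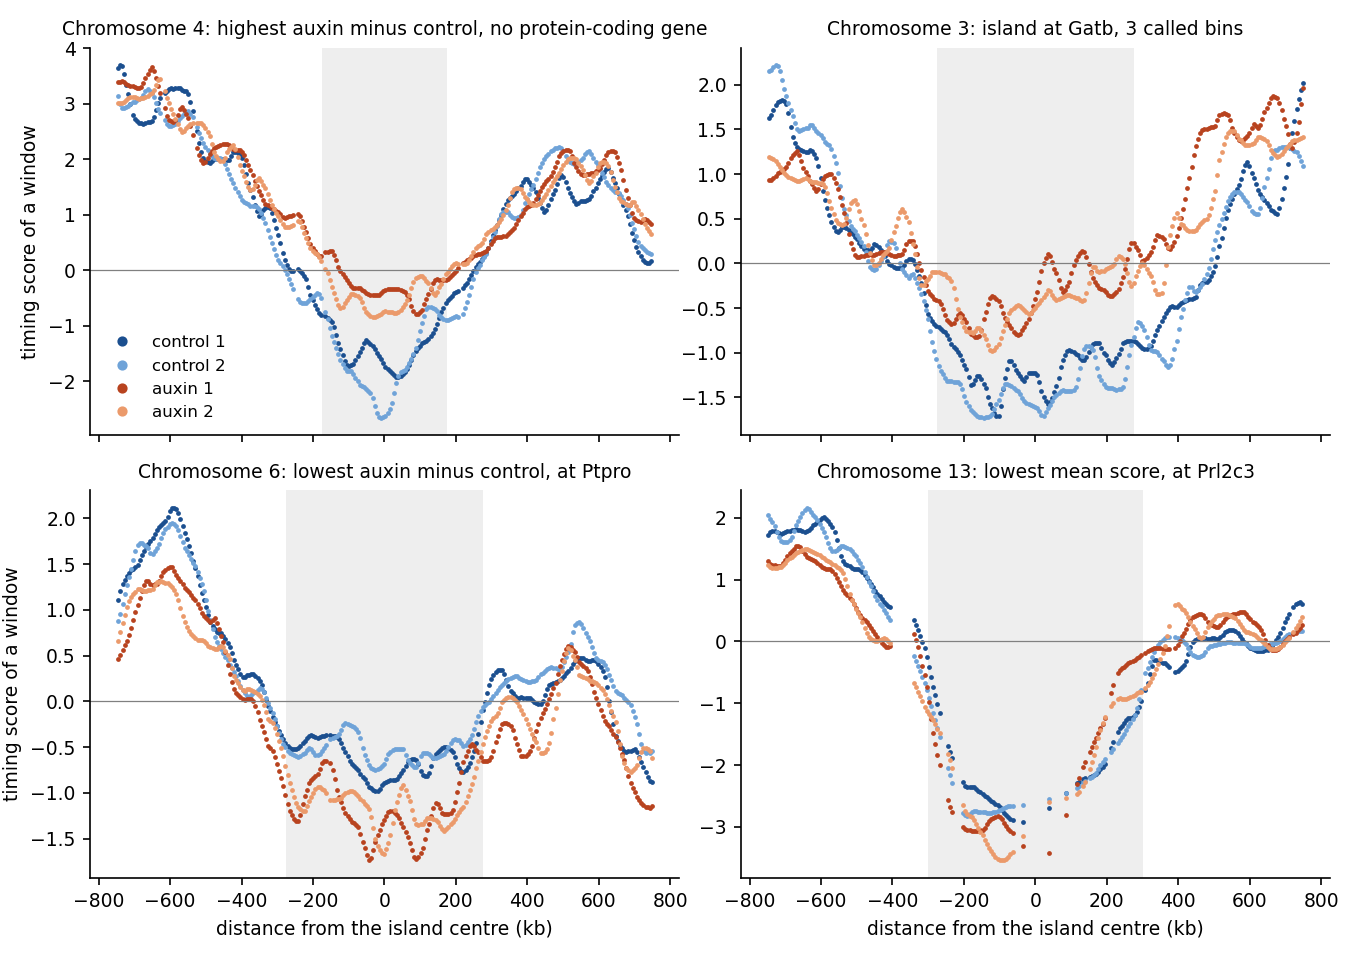
Timing score of single 6-kb windows against the distance in kb from the island centre in 4 islands, with the island shaded and 1 colour per profile. By island mean, both auxin profiles lie above both controls in the gene-less island of chromosome 4 and at Gatb and below both at Ptpro, and the profiles overlap at Prl2c3, where few windows cover the centre.

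A few islands went the other way. The largest difference downward, -0.584, was on chromosome 6 (136850001 to 137400000) over Ptpro, a receptor phosphatase gene of kidney podocytes, Rerg, Arhgdib and Erp27. The island scored -0.628 and -0.510 in control and -1.16 and -1.15 with auxin, and its flanks differed by -0.406. The groups were well apart, but the smallest limma adjusted p of its bins was 0.0843.

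Next came an island without a protein-coding gene on chromosome 14 (52600001 to 52800000), with a difference of -0.360. A single bin in Prkce, a protein kinase C gene, on chromosome 17 (86350001 to 86400000) followed with -0.325. The gene-less one scored -0.639 and -0.677 in control and -0.783 and -1.252 with auxin, so its size rests largely on auxin replicate 2. The bin at Prkce scored -0.357 and -0.431 in control, above the limit of the rule, and -0.797 and -0.642 with auxin. Ntrk2, which encodes the receptor of the neurotrophin BDNF, lies on chromosome 13 in an island (58750001 to 59250000) with a difference of -0.157, and Tmem132d on chromosome 5 (128000001 to 128250000) in one with -0.109. In both the auxin profiles lay below the controls by little.

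The protocadherin island differed by -0.149 and its groups overlapped, with -1.42 and -1.45 in control and -1.40 and -1.77 with auxin. Its difference rests on auxin replicate 2 alone. None of the 18 islands with a lower auxin mean had a called bin.

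Islands of the vomeronasal, keratin and olfactory families had higher means with auxin, while 2 of the 3 of the P450 genes did not, and no bin of these families' islands passed in limma. All 6 vomeronasal islands had a higher auxin mean, with differences from 0.0826 to 0.571 and a median of 0.399. The island of Vmn2r60 and Vmn2r59 on chromosome 7 (41850001 to 42350000) went from -1.86 and -1.83 to -1.63 and -1.61. The keratin island of chromosome 11 went from -1.73 and -1.85 to -1.41 and -1.31. A second keratin island, at Krt6a and Krt6b on chromosome 15 (101600001 to 101700000), named after its values were seen, went from -0.997 and -1.03 to -0.0556 and -0.218. In each of these 3 islands the profiles of the groups were apart.

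The 3 olfactory islands differed by 0.448 to 0.545. Of the 3 P450 islands, the Cyp3a island differed by -0.0256 and the Cyp4a island of chromosome 4 (115200001 to 115550000, named after its values were seen) by -0.0623, both with overlapping groups. Cyp19a1, the aromatase gene that makes oestrogen, lies on chromosome 9 in an island (54150001 to 54300000) that went from -0.691 and -0.921 to -0.231 and -0.479. The conjugating enzyme islands, Ugt1a10 and Ugt1a5 on chromosome 1 among them, differed by 0.158 and 0.363. Over all 107 islands with a protein-coding gene, 93 had a higher auxin mean, with a median difference of 0.339.

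Ion channel genes occupied 6 islands with 1 gene of the list each, out of 167 measured (3.59%, against 1.93% of all genes). They were Cacna1c, a calcium channel gene, the NMDA receptor genes Grin2a and Grin2b, and the potassium channel genes Kcnd3, Kcnh1 and Kcnj15. Their differences ran from -0.0641 at Cacna1c to 0.903 at Grin2a, with a median of 0.284, and 5 of 6 had the higher auxin mean. The Grin2b island (chromosome 6, 135900001 to 136300000) went from -1.35 in both controls to -1.12 and -1.06. Transporter genes had 12 of 423 measured members in 6 islands (2.84%, near the 1.93% of all genes), Abca14 and Slc6a11 with the largest overlaps. Of these 6 islands 5 had a higher auxin mean, against 121 of all 139.

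The authors' deposited table of regions that move earlier overlaps islands in 2 of its 22 regions, over Grin2a (chromosome 16, 9546000 to 9678000) and over Hhip (chromosome 8, 80040000 to 80172000). Both regions overlap an island by at least 1 base and were chosen by the authors on these same profiles. The deposited difference between groups is 1.15 in both. Of the 63 regions that move later in the authors' deposited table, 0 overlap an island.

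Other classes of chromatin, read out of the same fits, differed less or the opposite way. The early flanks of the islands had a median bin difference of -0.0748, late runs over 600 kb -0.0198, other late bins 0.0219 and all autosomal bins 0.00365, against 0.338 in island bins. Early islands in late chromatin, found by the mirrored rule (212 with 1457 bins), had a median difference of -0.217. In limma 48 of their bins were called later (3.29%) and 7 earlier (0.480%), against 1.02% and 0.637% of all bins. Differences between these classes were not tested. The fit against local surroundings above, in whose main setting no bin passed, sets each bin against its own neighbours and not class against class.

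**Figure D5:**
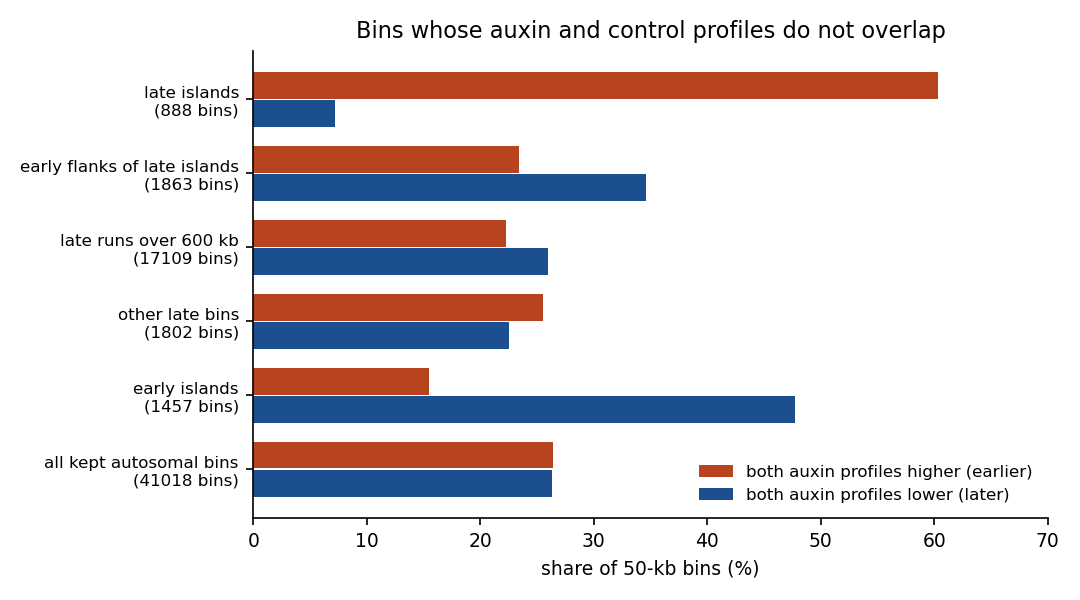
Share in % of 50-kb bins in which both auxin profiles lie above both controls (red) or below both (blue), by class of chromatin. Late islands have 60.4% above and 7.21% below, early islands 15.4% above and 47.7% below, and all autosomal bins 26.4% and 26.3%.

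Short-range structure differed between the profiles along the whole autosomes, beside the islands. The SD of a bin minus the mean of the bins 300 kb away on both sides was 0.961 and 1.05 in control and 0.853 and 0.858 with auxin (36023 bins). Quantile normalisation gives every profile the same overall distribution, so this concerns only the local part. Control replicate 2 had the higher SD of the controls, and it also had the deeper islands. How far the same source acts on the islands and on all bins was not tested.

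Because all 4 profiles entered the rule, the choice was repeated on fewer of them and read in those not used. Islands chosen on the auxin profiles alone (129) had mean scores of -1.33 and -1.49 in the unused controls and -1.12 and -1.14 in the auxin profiles that chose them. Of these, 117 had a mean under -0.5 in both unused controls, while of the 176 islands chosen on the control profiles alone 99 did so in both unused auxin profiles. Islands chosen on a single profile and read in the other 3, an alternative added after the data were seen, gave an unused auxin minus unused control of 0.409 and 0.219 for control replicates 1 and 2 and of 0.283 and 0.324 for auxin replicates 1 and 2. The sign was the same in all 4 choices. In the unused profiles, the auxin mean was above the control mean in 142 of 163 islands, 147 of 199, 108 of 129 and 126 of 148.

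At the thresholds, the highest bin mean inside an island was -0.501, on chromosome 15 (75150001 to 75200000), and the lowest just outside -0.4997, on chromosome 10 (88950001 to 89000000). The weakest accepted flank, of an island on chromosome 12 (56050001 to 56100000), was 0.503, and the strongest refused one, of a run on chromosome 8 (46700001 to 46950000), 0.486. The 14 islands of 600 kb had a median difference of 0.260 and the 11 runs of 650 kb, left out by span, 0.290.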

How the data were processed

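The authors deposited a score per 6-kb window for each replicate, quantile normalised per the file headers, and lists of regions with the absolute difference between groups as a score. Bowtie2, SAMtools, bedtools and the mm10 build are named in the submitters' processing notes, per the labels; no source used here gives versions, filters, smoothing or how early and late libraries were joined. Smoothing would make neighbouring bins share reads.

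Scores were averaged in 50-kb bins with at least 3 windows. Auxin was compared with control in limma 3.58.1 (R 4.3.3; lmFit, eBayes, treatment only, 2 residual degrees of freedom), tested on simulated data, with Benjamini-Hochberg adjustment over all bins. For single values, the 4 profiles were permuted exactly. Depth per profile is unknown, so no interval rests on it. RefSeq genes (GRCm38.p6) were assigned by overlap of at least 1 base.

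Islands named are the 6 deepest, longest, and most changed each way, those with called bins or authors' regions, and those nearest the thresholds, with at most 4 genes each. Members and lists were chosen with earlier results of these data known. Alternatives were the window minimum, the median of windows, variance moderation, limits of the rule, replicates left out and a replicate block.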

Additional observations from a re-analysis of the deposited data

How the results depend on the processing

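The direction of the island shift held under every alternative tried: the difference of medians ran from 0.170 to 0.423 and the depth difference from -0.547 to -0.321, over 13 alternatives each. Leaving out control replicate 2 gave 0.212 and leaving out control replicate 1 gave 0.423. The number of islands ran from 98 to 181 over 15 alternatives. Calls of single bins depended on the processing. Island bins called earlier in limma numbered 0 with all bins in the test, 84 with at least 5 windows a bin (9.59%, against 2.45% of all bins), 6 with the median of windows (0.676% against 0.162%) and 179 with a trended, robust variance (20.2% against 5.17%), which also called 9 later (1.01% against 5.66%). Leaving out a replicate left 1 group with a single profile and fewer residual degrees of freedom. Effect sizes are therefore given, and the calls of such fits mentioned below are not compared with all bins and carry no conclusion. The median difference of island bins then ran from 0.245 without control replicate 2 to 0.405 without control replicate 1. Relative to the surroundings, 1 island bin was called up with at least 5 windows, and 0 to 29 with a replicate left out, the 29 without control replicate 1. A fit with the replicate number as a block called 96 island bins earlier (10.8%, against 2.50% of all bins) and 77 up (8.68% against 1.80%). Deviations of same-numbered profiles correlated at 0.0326 over 41018 bins, so the numbers are not shown to pair samples. Counting only genes with a listed RefSeq promoter that starts in an island bin gave 239 in place of 379. That list holds 17492 promoters, against 21900 protein-coding genes, so genes without a listed promoter are missed. The cause of the dependence on processing was not tested. Having 2 profiles a group limits every call, and depth is unknown.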
